A study of Mus musculus with 2 samples.

Results

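The 9 genes described here are targets, a ligand and antagonists of bone morphogenetic protein (BMP) signalling in cultured mouse lung fibroblasts: Id1, Id2, Id3, Id4, Smad6, Smad9, Grem1, Bmp4 and Bambi. They were taken by symbol from a named list, chosen with earlier results of these data known, and are 9 of the 27998 genes listed in each library. Fibroblasts were grown from dissociated lungs of the inbred mouse strain C57BL/6, and single cells in droplets were sequenced at the 3′ ends of transcripts, with molecules counted through unique molecular identifiers (UMIs). There were 2 libraries: a control library, from cells of the same lung given vehicle for the same time, and a stimulated library. Stimulation began at passage 3 and lasted 14 days in medium with 10% serum or, to induce a lipid-storing (lipofibroblast-like) state, with a 1% insulin-transferrin-selenium supplement (ITS+3). The protocol names 10 µM rosiglitazone, an agonist of the nuclear receptor PPARG, 1 µM SB4315442 (spelt as in the labels) and 4 µM rhBMP4, recombinant human BMP4, used alone or together. The labels do not say which of these agents or which medium the stimulated library received, so no difference below can be tied to a named agent.

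BMP ligands bind paired type I and type II receptors, which phosphorylate the SMAD transcription factors of the BMP branch. These enter the nucleus with SMAD4 and switch on targets that include the Id genes and the inhibitory Smad6. ID proteins lack a DNA-binding domain and hold back basic helix-loop-helix (bHLH) factors by binding their E-protein partners. The pathway limits itself at several levels: Grem1 encodes gremlin, a secreted protein that traps BMP ligands, Bambi a membrane pseudoreceptor with no kinase domain, and Smad6 an intracellular inhibitor.

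To show what the genes carry in front of their starts, the 250 bases upstream were taken from RefSeq, build GRCm38.p6, for the 7 of 9 members with an entry. The count tables hold no coordinates, and the build behind them is not given in the sources used here. Searched were GGCGCC, a GC-rich sequence that SMAD complexes of the BMP branch are known to bind, its relative GGAGCC and the SMAD box, CAGAC. Each was searched on both strands, so the second of these also appears as GGCTCC, and no matches overlapped in these windows. Capitals mark both GC-rich motifs in the windows of the 3 Id genes with an entry and of Grem1, printed 5′ to 3′ on the gene's own strand.
Id2 (chr12:25096093-25096342, minus strand): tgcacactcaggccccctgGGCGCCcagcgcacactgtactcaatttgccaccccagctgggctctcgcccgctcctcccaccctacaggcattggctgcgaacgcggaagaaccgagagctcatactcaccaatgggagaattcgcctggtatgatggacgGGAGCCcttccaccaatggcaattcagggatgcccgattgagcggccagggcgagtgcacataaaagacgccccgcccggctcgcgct
Id3 (chr4:136143572-136143821, plus strand): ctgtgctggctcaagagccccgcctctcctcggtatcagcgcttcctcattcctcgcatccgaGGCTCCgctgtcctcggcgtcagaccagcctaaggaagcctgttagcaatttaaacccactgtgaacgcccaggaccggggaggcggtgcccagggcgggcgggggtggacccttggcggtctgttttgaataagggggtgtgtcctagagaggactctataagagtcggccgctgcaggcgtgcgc
Id4 (chr13:48260866-48261115, plus strand): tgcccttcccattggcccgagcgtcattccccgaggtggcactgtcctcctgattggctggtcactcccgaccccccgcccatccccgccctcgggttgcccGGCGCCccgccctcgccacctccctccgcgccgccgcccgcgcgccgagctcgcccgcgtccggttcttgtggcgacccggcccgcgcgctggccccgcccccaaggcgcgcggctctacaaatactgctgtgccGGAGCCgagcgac
Grem1 (chr2:113758649-113758898, minus strand): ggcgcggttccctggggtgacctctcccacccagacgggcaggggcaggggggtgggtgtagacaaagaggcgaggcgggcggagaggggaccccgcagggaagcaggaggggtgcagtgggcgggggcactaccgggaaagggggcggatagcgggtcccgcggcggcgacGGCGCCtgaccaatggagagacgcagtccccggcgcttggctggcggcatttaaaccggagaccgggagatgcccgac
GGCGCC was found once each in the windows of Id2, Id4, Smad9 and Grem1, against 9.59% of 32841 windows of the same length in the table. Its first base lay 231, 148, 51 and 78 bases before the start in those genes. GGAGCC was found in Id2, Id3, Id4, Smad9 and Bmp4 once each and at 2 places in Smad6, against 26.0% of windows. CAGAC, not in capitals above, was found at 2 places in Id3 and once in Grem1, against 42.2% of windows. The windows were GC-rich: 62.8% in Id2 and Id3, 75.6% in Id4 and 72.0% in Grem1, against a median of 52.4% over the table. A match describes the letters only.

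The deposited control library held 5016 barcodes and the stimulated library 7698, of which 4703 and 7468 cells were kept, with medians of 19634 and 15380 UMIs per cell. The kept cells held 88573140 and 117193148 UMIs, and 46 kept barcode sequences occurred in both libraries. Fibroblast-like clusters, named from markers, made up 79.0% (77.8% to 80.1%) of the cells in 1 library, the control, and 82.3% (81.4% to 83.1%) of those in the other, with exact binomial intervals. At 5 UMIs per 1000000 UMIs of the library (CPM), 12 of 12 fibroblast markers were present in control and 11 of 12 in stimulated cells, with summed levels of 10884 and 4562 CPM. No adipocyte marker of 6 reached 5 CPM in either library. The control library also held 148 macrophage-like and 60 mesothelial-like cells, the stimulated library 1 and 23. The fibroblast-like clusters, and the unnamed cluster led by Des and Gzme, were almost wholly of 1 library each, so for them cluster and library cannot be told apart. Each group is 1 library, so the differences have no replicate check and no test, and the 95% intervals given cover counting error only.

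The 4 Id genes did not move as a group. Id1 was at 84.8 CPM (82.8 to 86.7) in control cells and 79.0 CPM (77.4 to 80.6) in stimulated cells, a fold of 0.932 (0.904 to 0.961), stimulated over control. Id3, the most abundant of the 4 in UMIs, was at 559 CPM (554 to 564) and 356 CPM (352 to 359), 1.57-fold lower (1.55 to 1.59). Id2 was at 81.5 CPM (79.6 to 83.4) and 13.7 CPM (13.0 to 14.4), 5.96-fold lower (5.64 to 6.29). So Id1 and Id2, at near-equal levels in the control library, stood far apart in the stimulated one. Id4 was scarce in both, at 9.48 CPM (8.85 to 10.1) and 0.811 CPM (0.656 to 0.991), 11.7-fold lower (9.45 to 14.6). The order by size of the difference was Id4, Id2, Id3, Id1, and no neighbouring intervals in that order overlapped.

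Among the inhibitors, the secreted and the intracellular one were lower and the membrane one was at nearly the same level. Grem1 was at 289 CPM (286 to 293) in control cells and 85.7 CPM (84.0 to 87.4) in stimulated cells, 3.38-fold lower (3.30 to 3.46). Smad6 was at 12.8 CPM (12.1 to 13.6) and 3.27 CPM (2.95 to 3.61), 3.92-fold lower (3.49 to 4.41). Bambi was at 15.7 CPM (14.9 to 16.5) and 14.7 CPM (14.0 to 15.4), a fold of 0.940 (0.875 to 1.01). Its interval includes no difference. The ligand gene Bmp4 was at 11.2 CPM (10.5 to 11.9) and 0.742 CPM (0.595 to 0.916), 15-fold lower (12.1 to 18.9). Smad9, which encodes a receptor-activated SMAD of the BMP branch, was near the limit of these counts at 1.41 CPM (1.17 to 1.68) and 1.32 CPM (1.12 to 1.55), a fold of 0.937 (0.736 to 1.20).

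**Figure D1:**
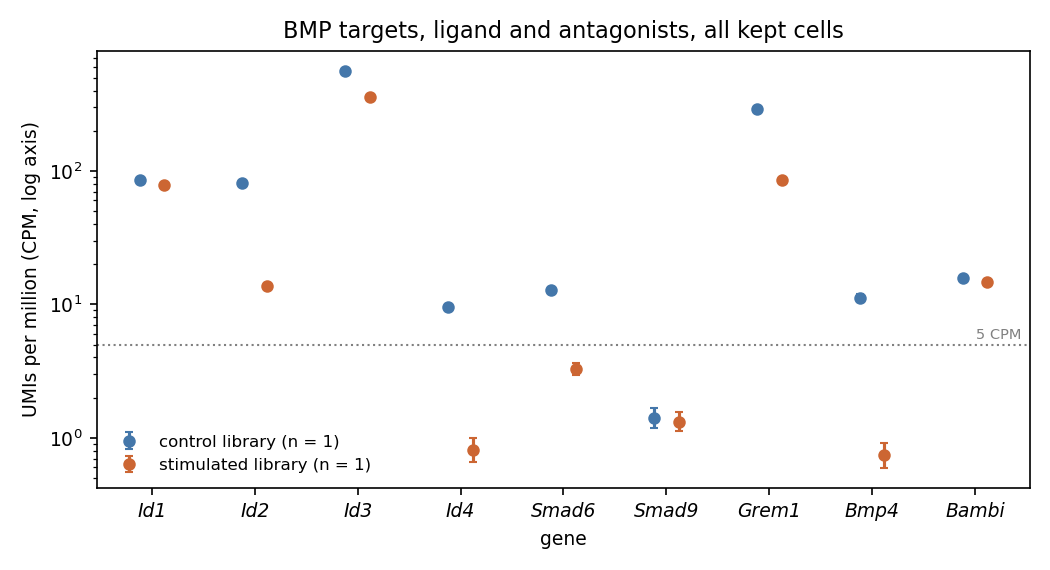
Level of each of the 9 genes in the control (blue) and stimulated (orange) library, in CPM on a log axis, with 95% exact Poisson intervals (n = 1 library each). The paired points of Id1, Smad9 and Bambi lie side by side, while those of Id2, Id4, Smad6, Grem1 and Bmp4 are 3.38- to 15-fold apart.

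Of the 9 genes, 8 had a mean of at least 5 CPM, and 6 of these lay at least 1.5-fold below their control level in the stimulated cells. Over all 8787 genes at that mean, 12% were at least 1.5-fold lower and 7.75% at least 1.5-fold higher. No member was at least 1.5-fold higher. Id4, Smad6 and Bmp4 reached the mean only through the control library, being under 5 CPM in the stimulated one, so they had to differ, and the count over the 8 is no support for a direction. For scale, 5.05% of all measured genes were at least 2-fold lower and 2.42% at least 3-fold lower, a range that held Id2, Id4, Smad6, Grem1 and Bmp4. The median log2 fold over all measured genes was -0.06.

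Id3 lay closest to the 1.5-fold line among the 6. With library totals scaled by the trimmed mean of M-values (TMM), its fold was 0.684 in place of 0.637 and it no longer passed. That scaling moved the median log2 fold of all measured genes by 0.10, to 0.04, and turned the split over all genes into 9.41% lower and 10.2% higher. Id1, at 1.00, and Bambi, at 1.01, lay at or just over 1 under it. Id2 at 0.180, Smad6 at 0.274 and Grem1 at 0.318 stayed at least 3-fold lower.

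The make-up of the Id UMIs differed between the libraries. Id1 to Id4 together gave 65053 control UMIs (734 CPM) and 52648 stimulated UMIs (449 CPM). UMIs count transcript ends and were not scaled by length, so the shares are shares of molecules captured. Id3 gave 76.1% of control Id UMIs (75.7% to 76.4%) and 79.2% of stimulated ones (78.8% to 79.5%). Id2 gave 11.1% (10.9% to 11.3%) and 3.04% (2.90% to 3.20%), while Id1 gave 11.5% (11.3% to 11.8%) and 17.6% (17.3% to 17.9%). Id3 held the largest share in both libraries. The UMI ratio of Id1 to Id2 was 1.04 (control) and 5.78 (stimulated), and that of Grem1, the antagonist, to Id1 was 3.41 and 1.08. Within fibroblast-like cells the Id1 to Id2 ratio was 1.09 and 6.03, and the Grem1 to Id1 ratio 3.43 and 0.769. Grem1 thus lay below Id1 in the stimulated fibroblast-like cells, but not over all stimulated cells. The fibroblast-like set leaves out the unnamed stimulated cluster led by Des and Gzme, with Grem1 at 356 CPM and Id1 at 44.9 CPM. It keeps a like control cluster, led by Cxcl14, Hsd3b6 and Gzme.

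**Figure D2:**
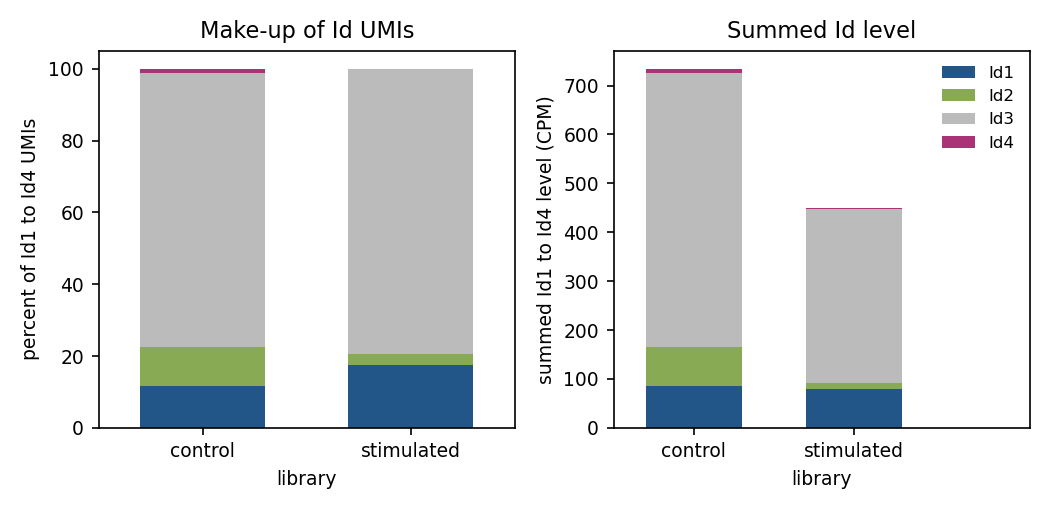
Left, share of each Id gene among the summed Id1 to Id4 UMIs of each library, in percent; right, their summed level in CPM. Id2 takes 11.1% of the control bar and 3.04% of the stimulated bar, and the summed level is 734 against 449 CPM.

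Shares of cells with a UMI were compared after thinning each cell to 5000 UMIs, which left out 626 control and 760 stimulated cells. Id1 was seen in 29.3% of 3678 control fibroblast-like cells (27.8% to 30.8%) and 29.0% of 6106 stimulated ones (27.9% to 30.2%). Id2 was seen in 27.2% (25.8% to 28.7%) and 6.71% (6.10% to 7.37%). Id3 was seen in 81.2% (79.9% to 82.5%) and 71.9% (70.7% to 73.0%). Thus about as many cells showed Id1 in both libraries, while far fewer showed Id2 in the stimulated one. Grem1 was seen in 58.6% (57.0% to 60.2%) and 20.6% (19.6% to 21.6%), Id4 in 4.62% and 0.426%, Smad6 in 6.63% and 1.70%, Bambi in 7.18% and 7.04%, and Smad9 in 0.979% and 0.802%. Over all kept cells at 5000 UMIs, which include the unnamed cluster led by Des and Gzme, Grem1 was seen in 56.3% and 24.1%. Unthinned, at median depths of 21464 and 16135 UMIs, Id1 was seen in 63.1% and 58.0% of fibroblast-like cells, Id2 in 59.2% and 17.8%, and Grem1 in 85.4% and 42.3%.

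Free RNA in droplets can give UMIs in cells that do not make a gene. In 129 control macrophage-like cells at 5000 UMIs, Grem1 was seen in 17.1%, Id1 in 17.8% and Id3 in 38.8%. The unthinned median depth of the control macrophage-like cells was 10554. Whether these UMIs came from free RNA, doublets or the cells themselves was not tested. Id4 and Bmp4 were seen in 1.55% of the macrophage-like cells, Smad6 in 2.33%, Bambi in 0.775% and Smad9 in 0 of 129, which allows a share of up to 2.33% (3 counts of the total). The stimulated fibroblast-like shares of Id4 (0.426%), Smad6 (1.70%) and Bmp4 (0.0328%) lie at or below these control shares, which rest on 2 or 3 of 129 cells, and their part as background was not tested. With 1 stimulated macrophage-like cell, no such share could be had in that library.

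Id2 was the only member seen in a larger share of macrophage-like than of control fibroblast-like cells at 5000 UMIs, 55% against 27.2%. Its level in macrophage-like cells was 274 CPM (250 to 300), above every fibroblast-like cluster. The macrophage-like cells held 6.44% of control Id2 UMIs and were nearly missing from the stimulated library. Within fibroblast-like cells Id2 was 5.84-fold lower (5.52 to 6.19), about as large as over all cells. Over all genes measured in fibroblast-like cells, 12.6% were at least 1.5-fold lower and 7.96% higher. The summed level of the 12 macrophage markers in fibroblast-like cells was 81.5 CPM (control) and 18.7 CPM (stimulated), with 3 and 1 of them at 5 CPM.

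The number of Id genes seen per cell was lower in stimulated cells. In fibroblast-like cells at 5000 UMIs, none of the 4 was seen in 13.2% of control cells (12.1% to 14.3%) and 20.4% of stimulated cells (19.4% to 21.5%). Exactly 2 were seen in 30.6% (29.1% to 32.1%) and 25.2% (24.1% to 26.3%). Exactly 3 of them were seen in 11.3% (10.3% to 12.4%) and 1.64% (1.33% to 1.99%). All 4 were seen in 29 control cells and in no stimulated cell of 6106. Across single cells, which share library and depth here, the levels of 2 members were at most weakly related. The highest Pearson correlation was 0.26, for Id1 and Id3 in the control library. Sparse counts at 5000 UMIs limit such values. Over 15 cluster units, shallow ones among them and centred within each library, pairs ran from -0.09 (Id1 and Id4) to 0.90 (Id1 and Bambi). Id1 and Id3 were at 0.85 there.

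Bmp4 was in few cells, and the split of its UMIs over the named classes differed between the 2 libraries. In both, mesothelial-like cells had the highest level among the named classes. Fibroblast-like cells held 868 of the control UMIs of Bmp4 (87.9%) but 7 of the stimulated ones (8.05%), where it was 159-fold lower (76.9 to 397). This set keeps the control cluster led by Cxcl14, Hsd3b6 and Gzme but not the like stimulated cluster led by Des and Gzme, which is unnamed; with that cluster the fold was 0.0415. At 5000 UMIs per cell it was seen in 4.32% (3.69% to 5.03%) of control and 0.0328% (0.00397% to 0.118%) of stimulated fibroblast-like cells. The 23 stimulated mesothelial-like cells, 0.308% of that library, held 42.5% of its Bmp4 UMIs, at 75.8 CPM (53.4 to 104), and control mesothelial-like cells were at 87.7 CPM (71.3 to 107). The remaining 49.4% of stimulated Bmp4 UMIs came from a cluster of 524 cells led by Des and Gzme, which stayed unnamed, at 4.84 CPM (3.50 to 6.51).

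Within the control library, Bmp4 and Grem1 peaked in the same fibroblast-like cluster. This cluster of 333 cells, led by Cxcl14, Hsd3b6 and Gzme, had Bmp4 at 50.5 CPM (45 to 56.4), against 18, 8.80 and 2.70 CPM in the clusters led by Lum and Dcn, by the cycling gene Top2a, and by Meg3. It had Grem1 at 788 CPM (766 to 811), against 402, 223 and 223 CPM in the same order. Id4 was also highest there, at 18.8 CPM (15.6 to 22.6), and so was Id2, at 112 CPM (104 to 121), though with an interval that overlaps the 107 CPM (102 to 112) of the cycling cluster. Id3 was lowest there, at 449 CPM, against 533 to 663 CPM in the others. Id1 and Id3 did not share this peak. Id1 was highest in the cycling cluster, at 115 CPM, against 74.9 to 85.8 CPM. Smad6 was nearly even, from 12.7 to 14.3 CPM over the 4 clusters.

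In the stimulated library the unnamed cluster led by Des and Gzme had the highest Grem1, at 356 CPM (343 to 368), against 52.5 to 72.4 CPM in the 3 fibroblast-like clusters. It held 31.5% of stimulated Grem1 UMIs. It is not among the fibroblast-like clusters, and Grem1 was 4.72-fold lower (4.60 to 4.85) over these alone, against 3.38-fold over all cells. With the cluster added to them the fold was 0.288, near the 0.296 over all cells. The same cluster had Id1 at 44.9 CPM, below the 68.6 to 98.4 CPM of the 3 fibroblast-like clusters. Id2 ran from 12 to 16.1 CPM across them. It was at 16.1 CPM (14.9 to 17.4) in the cycling cluster and 12.1 CPM (11.2 to 13.1) in the cluster led by Gm10638 and Meg3. Summed smooth muscle markers, which include Des, were at 1306 CPM (control) and 252 CPM (stimulated), with 6 and 5 of 7 at 5 CPM, and their part in the Grem1 difference was not tested.

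**Figure D3:**
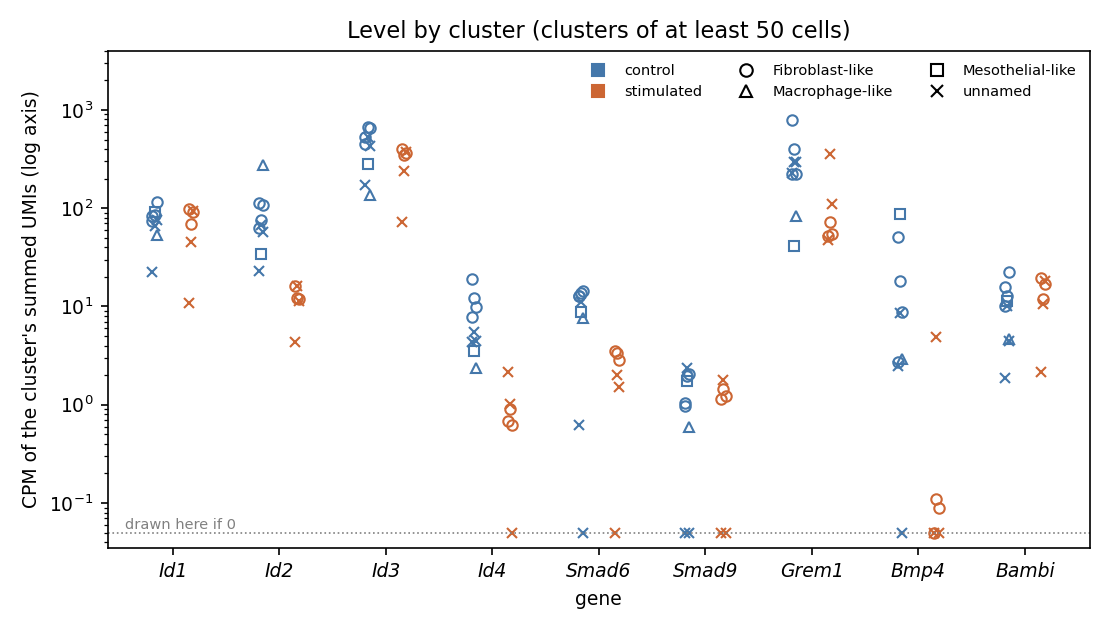
Level of each gene in every cluster of at least 50 cells of a library, in CPM on a log axis; blue is control and orange stimulated, and shapes give the cluster's name. For Id2 the fibroblast-like circles of the 2 libraries are apart (63.4 to 112 against 12 to 16.1 CPM), and for Id1 they overlap (74.9 to 115 against 68.6 to 98.4 CPM).

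Over fibroblast-like clusters of at least 50 cells, 4 control and 3 stimulated ones, the ranges of the libraries did not overlap for Id2, Id3, Id4, Smad6, Grem1 and Bmp4. They overlapped for Id1, Smad9 and Bambi. The stimulated set leaves out the unnamed cluster led by Des and Gzme. The control set keeps the like cluster led by Cxcl14, Hsd3b6 and Gzme. In the unnamed cluster Grem1 was at 356 CPM and Bmp4 at 4.84 CPM. Both lie inside the control ranges, 223 to 788 CPM for Grem1 and 2.70 to 50.5 CPM for Bmp4. So for these genes the gap depends on how that cluster was named. At a finer clustering the ranges of Id3 overlapped too, 447 to 742 against 243 to 463 CPM. Clusters of 1 library are not replicates, so these ranges describe variety within each library. How many of all genes had ranges apart was not counted, so the list is no result about the members. Id4, Smad6 and Bmp4 were also under 5 CPM in the stimulated library.

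Clusters with like leading genes were set side by side, as 4 pairs chosen after the clusters were seen: cycling, Meg3 and Tshz2, Hspa5 and Ctsl, and Gzme and Hsd3b6, the last pairing a fibroblast-like with the unnamed cluster. Id2 was 5.22- to 7.01-fold lower in the stimulated member of all 4 pairs, and Id3 1.55- to 1.87-fold lower. Of all genes measured in the pairs, in the order named, 12%, 11.9%, 17.1% and 18.8% were at least 1.5-fold lower and 6.44%, 8.78%, 13.1% and 6.77% higher. Smad6 was 3.74- to 6.33-fold lower, Id4 8.53- to 19.8-fold lower and Grem1 2.22- to 7.36-fold lower. Grem1 thus varied most between pairs among the genes with many UMIs, from the Gzme pair, with the smallest difference, to the Hspa5 pair. Bmp4 had no UMI in the stimulated cycling cluster, and was 10.4-fold lower (7.57 to 14.7) in the Gzme pair.

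Id1 did not behave alike in the pairs. In the Gzme pair it was 1.88-fold lower (1.64 to 2.14), about the same as Id3 there at 1.87-fold. In the cycling and the Meg3 pair its folds were 0.857 (0.813 to 0.904) and 0.917 (0.874 to 0.962), and in the Hspa5 pair 1.06 (0.975 to 1.15). Bambi was at 0.862, 0.751 and 1.31 in the cycling, Meg3 and Hspa5 pairs, so its near-equal library totals joined clusters that differed in opposite directions.

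**Figure D4:**
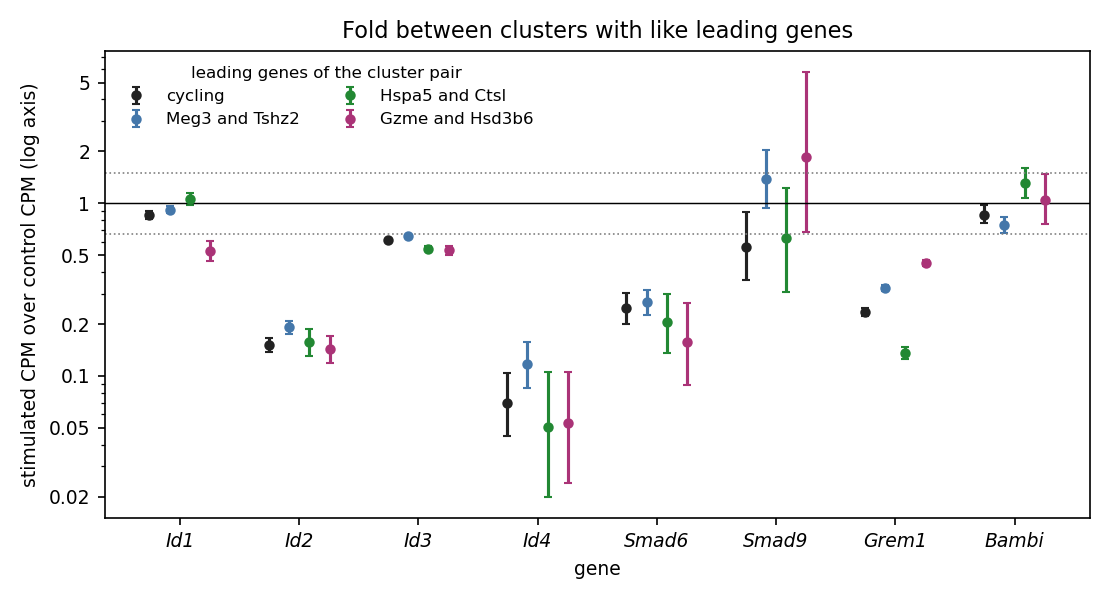
Fold of each gene, stimulated over control CPM on a log axis, in 4 pairs of clusters with like leading genes, with 95% exact conditional-Poisson intervals; dotted lines mark 1.5-fold. All Id2 points lie at 0.143 to 0.192, while Id1 lies at 0.533 in the Gzme pair and 0.857 to 1.06 in the others; Bmp4 is not drawn.

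Cycling cells differed from the rest in the same direction in both libraries for most of the genes with many UMIs. Fibroblast-like cells with at least 5 UMIs of 12 cycling genes at 5000 UMIs, 589 control and 1664 stimulated, were set against 2565 and 3007 cells with fewer than 2. Id1 was 1.48-fold higher (1.40 to 1.56) in cycling control cells and 1.53-fold higher (1.46 to 1.60) in cycling stimulated cells. Bambi was 1.54-fold and 1.49-fold higher, Id2 1.52-fold and 1.33-fold, and Id3 1.21-fold and 1.23-fold. Grem1 went the other way, with folds of 0.708 (0.682 to 0.735) and 0.610 (0.574 to 0.647). Among the fibroblast-like cells not in cycle Grem1 was at 324 CPM (control) and 77.0 CPM (stimulated), and Id1 at 78.0 and 68.1 CPM. Over all cells not in cycle, with those of the unnamed cluster led by Des and Gzme, the Grem1 fold was 0.349.

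Depth per cell moved with Grem1. In control fibroblast-like cells it was at 703, 457 and 232 CPM in cells of 5000 to 10000, 10000 to 20000 and over 20000 UMIs. In stimulated ones it was at 68.6, 65.6 and 58.9 CPM, giving folds of 0.0976, 0.144 and 0.254. Id2, by contrast, had folds of 0.380 (0.243 to 0.603), 0.175 and 0.154 in the same order, the first from 93 control cells. The part of depth in these differences was not tested. The stimulated cells used here leave out the unnamed cluster led by Des and Gzme, where Grem1 was at 356 CPM.

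The list of other pathway genes held 68. Of them, 33 had a mean of at least 5 CPM, 8 were at least 1.5-fold lower and 2 higher, against 12% and 7.75% of all measured genes, and their median log2 fold was -0.23. The same shares of all genes are the background of each list count that follows. None of 13 other BMP ligands reached 5 CPM. The 3 most abundant were Gdf6 at 3.70 CPM (control) and 0.614 CPM (stimulated), Bmp5 at 1.49 and 0.913 CPM, and Gdf10 at 0.203 and 0.683 CPM.

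Receptors split in direction. Of 9 measured receptors and co-receptors, 3 were lower, namely the type I receptors Acvr1 (0.592) and Bmpr1b (0.295) and the type II receptor Bmpr2 (0.613), given as folds. The type I receptor Bmpr1a was at 45.1 and 30.2 CPM, a fold of 0.669 (0.639 to 0.700) that lay just inside the line. Both genes that were higher were co-receptors. Tgfbr3, or betaglycan, was at 27.0 CPM (control) and 103 CPM (stimulated), a fold of 3.8 (3.64 to 3.97), and Rgma was at 4.12 and 15.5 CPM, a fold of 3.76 (3.35 to 4.21). Endoglin (Eng) was at 35.2 and 31.1 CPM.

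The signal-carrying SMADs were nearly level: Smad1 had a fold of 0.906 (0.872 to 0.941), Smad4 0.893 (0.852 to 0.935) and the phosphatase gene Ppm1a 0.897 (0.863 to 0.932). The other inhibitory SMAD, Smad7, was at 37.1 and 11.2 CPM, 3.30-fold lower (3.10 to 3.52). It was the only 1 of 7 measured genes in that list past the line. Secreted antagonists were mixed, with 2 of 8 lower and a median log2 fold of -0.40. Crim1, a membrane-bound BMP antagonist, had a fold of 0.313 (0.300 to 0.327). The more abundant Fstl1 (0.766), Nbl1 (0.730) and Fst (0.750) lay within the line.

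Of 10 other listed targets, 3 had a mean of at least 5 CPM. Among these 3, the bHLH repressor gene Hes1 was 3.71-fold lower (3.51 to 3.92), while Runx2 had a fold of 1.04 (0.971 to 1.11) and Atoh8 of 0.696 (0.644 to 0.753). Listed targets under that mean went in both directions. Tmem100 was at 0.700 CPM (control) and 5.92 CPM (stimulated), a fold of 8.46 (6.52 to 11.2). Hey1 was at 0.971 and 0.0768 CPM, and Msx2 at 1.57 and 0.324 CPM. The E-protein partners of ID proteins lay within the line: Tcf3 had a fold of 1.32 (1.27 to 1.38), Tcf4 of 1.17 (1.14 to 1.20) and Tcf12 of 0.93 (0.888 to 0.974). Twist2 was at 1.23 (1.19 to 1.27) and Bhlhe40, the 1 of 6 past the line, was 2.29-fold lower (2.14 to 2.45). For comparison, 5 of 7 listed genes of the TGF-beta response, the other branch of the superfamily, were at least 1.5-fold lower, against 12% of all measured genes, with a median log2 fold of -1.42. Ctgf was 3.49-fold lower (3.4 to 3.58) and Pmepa1 3.50-fold (3.41 to 3.59).

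**Figure D5:**
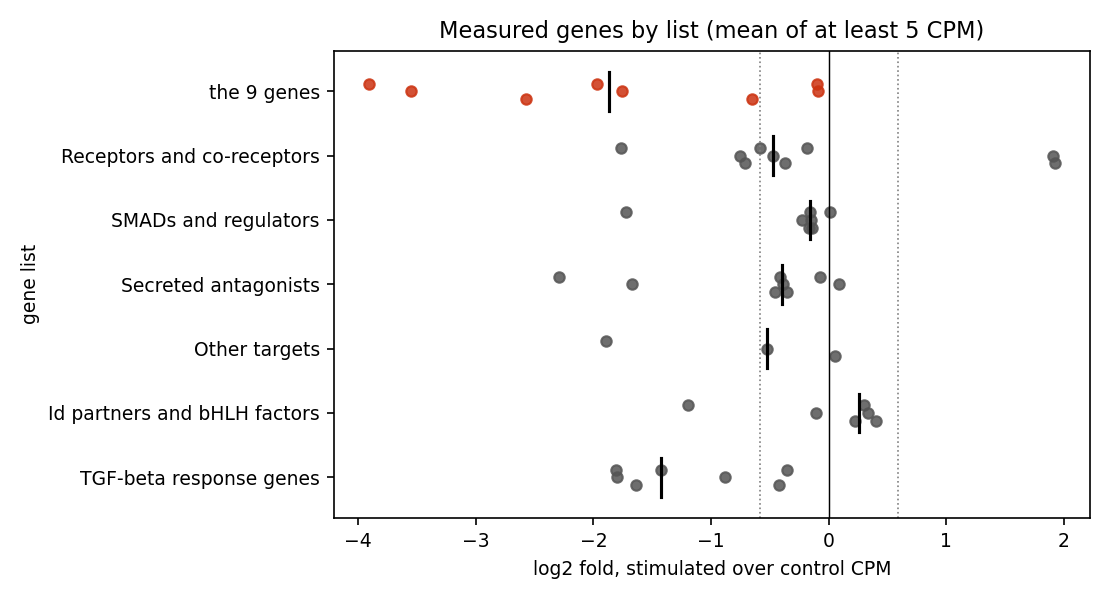
Log2 fold, stimulated over control CPM, of each gene with a mean of at least 5 CPM, by list; black bars are list medians and dotted lines mark 1.5-fold. The members (red) run from -3.91 for Bmp4 to -0.09 for Bambi, and the listed receptors include the 2 genes at 1.91 and 1.93, Rgma and Tgfbr3.

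Across 15 cluster units of at least 50 cells, with log2(CPM + 1) centred within each library, the genes most like each member by Pearson correlation were as follows. They share cells, depth and library with the member, and shallow clusters are among the units. Id1 was closest to Rrs1 (0.97) and Trp53i13 (0.97), Id2 to Edem1 (0.97) and Gna13 (0.94), and Id3 to Lurap1l (0.95) and Poldip2 (0.94). With only 2 genes taken per member, the lack of a shared one says little about how alike the Id genes are. Id1 and Id3 correlated at 0.85 with each other in these units. Id4 was closest to Fbxl22 (0.88) and Rnf144a (0.87), and Grem1 to Ptges (0.95) and Fgf10 (0.94). Smad6 was closest to Zfp553 (0.96) and Bet1 (0.95), Bmp4 to Fam210b (0.91) and Ctxn1 (0.90), Bambi to Gnl1 (0.97) and Fam132a (0.94), and Smad9 to Tprkb (0.89) and Sh3d19 (0.88). By Spearman correlation 1 of the 2 nearest genes stayed the same for Id2, Id4, Bmp4 and Bambi, and none for the other members.

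No member shared a 3′ window with another listed gene. Exons of Id4 overlap A330033J07Rik and Gm49291 on the opposite strand, and those of Bmp4 overlap Gm15217. The counting's use of strand is not given in the sources used here, so reads of these genes and their partners may not be separable.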

How the data were processed

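Single-cell 3′ UMI counts of 2 libraries, 1 control and 1 stimulated, were used as the authors deposited them, raw and not normalized. Cell Ranger 3.0.2 wrote them, per the file headers; Cell Ranger 1.3.1 and Seurat 3.0.0 stand in the submitters' processing notes. Genome build, annotation and barcode filter: not given in the sources used here. Groups come from the sample titles.

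Cells with at least 500 genes and at most 20% mitochondrial UMIs were kept. Counts were summed per library and divided by the total, giving CPM per 1000000 UMIs. Folds are stimulated over control CPM with exact conditional-Poisson 95% intervals. The comparison at 1.5-fold took genes whose mean reached 5 CPM, and a group with no UMI was set at 3 counts for a bound. Cells were clustered with scanpy 1.11.5 in Python 3.11.15 (2000 variable genes without the members and listed genes, 30 components, 15 neighbours, Leiden resolution 0.5, no integration). A cluster took a cell type's name from at least 3 markers seen in 25% of its cells, and for types other than fibroblast also 2 among its 10 leading genes. Shallow clusters stayed unnamed, as did those with more leading genes from another type's markers than from the fibroblast list; Des, a smooth muscle marker, left 1 such cluster unnamed. Scrublet marked 2 control and 0 stimulated cells, too few for a working caller, so doublets remain. TMM factors came from edgeR 4.0.16, and shared 3′ ends were searched with minimap2 2.31. The interval code was tested on simulated libraries. A first requirement on coverage at each simulated fold was missed at the fold near the 1.5-fold line. It was then replaced by a requirement on pooled coverage, with the interval code unchanged.

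The genes and lists were chosen with earlier results of these data known. Named genes are the 9 members, the 3 most abundant genes of each list and its largest fold, and the 2 genes closest to each member; a few of these are not reported here. Acvr1, Bmpr1b, Bmpr2, Rgma, Crim1, Tcf12, Tmem100, Hey1 and Msx2 were named after their values were seen.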

Additional observations from a re-analysis of the deposited data

Results flagged for a closer look

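Bambi, the pseudoreceptor gene, differed in opposite directions between parts of the 2 libraries although its library totals were nearly equal. In the pair of clusters led by Hspa5 and Ctsl its stimulated over control fold was 1.31 (1.07 to 1.61). In the cycling pair it was 0.862 (0.765 to 0.972) and in the Meg3 and Tshz2 pair 0.751 (0.673 to 0.838). By depth, it was 1.27 (1.11 to 1.46) in fibroblast-like cells of 10000 to 20000 UMIs and 0.848 (0.767 to 0.937) in cells over 20000 UMIs. Each interval covers counting error only, and with 1 library per group the difference between these folds was not tested.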

How the results depend on the processing

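No paired analysis was possible because each group had 1 sample. No member was at least 1.5-fold higher under any of 15 alternatives. The count of members at least 1.5-fold lower was 6 in 12 of them. It was 4 with TMM scaling, where Id3 no longer passed and 7 members were measured, 5 with a mean of CPM over cells and 3 of 4 measured with a mean of at least 20 CPM. For the other pathway genes, a mean of at least 1 CPM gave 15 of 44 measured lower (14.8% over all genes), one of at least 20 CPM gave 4 of 21 lower and 1 higher (12% and 5.97% over all genes), and no filter gave 20 of 62 lower and 13 higher (22.1% and 14.8%), in place of 8 and 2 of 33. Of 108 member folds under alternatives, 81 stayed within the counting interval and 0 reversed a call. Bmp4 ranged most, from 0.00629 in fibroblast-like cells to 0.0935 in cells not in cycle. 3 alternatives were chosen after seeing the data: without macrophage-like and mesothelial-like cells, without unnamed clusters, and fibroblast-like cells with the Des and Gzme cluster, where Bmp4 was at 0.0416, 0.0363 and 0.0415 and Grem1 at 0.288 in the last. Low counts limit Smad9, Id4 and Bmp4.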
